A study of Homo sapiens with 15 samples.

Results

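Mitochondrial ribosomal protein genes were taken as the rows of the expression table whose symbol is MRPL or MRPS followed by a number and an optional letter A, B or C. The rule found 74 of 12261 genes, and all 74 passed the filters on low values used below. The cells were HEK-293 Trex, an established line from human embryonic kidney in which doxycycline switches a transgene on. One line expressed CLIP-UPF1_isoform_1 (called UPF1-1), one CLIP-UPF1_isoform_2 (UPF1-2) and one GFP, where CLIP is a protein tag. All 3 lines, GFP included, received doxycycline at 200 ng/mL. UPF1 is an RNA helicase that is required for nonsense-mediated mRNA decay, and its isoforms differ in a regulatory loop of the helicase core. Total RNA, depleted of ribosomal RNA, was sequenced from the 3 lines, and so was affinity-purified RNA (IP) of the UPF1-1 and UPF1-2 lines. The 15 libraries formed 5 groups of 3. Each construct was in a line of its own, so line and construct cannot be told apart, and whether a line was 1 clone is not given in the sources used here. The GFP line gave no IP here, and recovery below is relative to total RNA of the same line.

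Mitochondrial ribosomes translate the few mRNAs of the mitochondrial genome, which encode core subunits of the respiratory chain. Their RNA comes from mitochondrial DNA, but every one of their proteins is encoded in the nucleus, made by cytosolic ribosomes and imported. They descend from bacterial ribosomes, so many of the proteins have bacterial counterparts, and others are found only in mitochondria. The MRPL genes encode proteins of the large subunit, which forms peptide bonds, and the MRPS genes those of the small subunit, which reads the mRNA; MRPS18A and MRPS30 are named as small-subunit genes, but their proteins sit in the large subunit and are counted there.

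The table held nearly the whole set. RefSeq lists 77 protein-coding symbols that match the rule, and 73 of them were in the table; MRPS36 is the 74th member and has since been given another symbol, because its protein belongs to a metabolic enzyme complex. By subunit, 47 members were counted as large and 25 as small. The other 2 were left unplaced: MRPS36, and MRPL55 although its symbol is that of a large-subunit gene. RefSeq names pseudogenes after 39 of the members, up to 9 for MRPS21, and values of these genes are uncertain where reads could be shared with a copy.

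Short sequence words that the promoters had in common are shown first, because nothing in the rule used them. RefSeq promoters (build GRCh38.p14, 250 bases before to 50 after the start) matched 65 of the 74 members, and 4 words were searched on both strands: CCGGAAG, a core of the sites of ETS-family factors; ATGGCGG, a core of YY1 sites; a core of NRF1 sites, the palindrome made of GCGCA and its reverse complement TGCGC; and TATAAA, the TATA box. None of these words contains another, and matches of different words were counted separately. CCGGAAG was in 40.0% of the members' promoters, against 14.2% of protein-coding promoters and 20.7% of those of genes in the table. ATGGCGG was in 35.4%, against 7.63% and 11.4%. At least 1 of these words was in 66.2% of the members' promoters, against 20.1% and 29.3%, and the shares were alike for large-subunit (67.5% of 40) and small-subunit genes (66.7% of 24). The NRF1 palindrome was in 1.54% against 1.75% and 2.58%, and TATAAA in 3.08% against 9.63% and 4.98%. The matches lay close to the start: 24 of 34 for CCGGAAG and 20 of 24 for ATGGCGG were within 50 bases of it. Of the 24 ATGGCGG matches, 18 read in the direction of the gene in the first 50 transcribed bases, where its first 3 letters also spell a start codon. The windows of MRPL46 and MRPS11 overlap on opposite strands, so they are not separate sequences. A word is a description of the sequence and not a measured binding site.

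A few windows of 130 bases (100 before to 30 after the start) show these words in capitals, in either orientation, for genes that the values below return to: MRPS26 and MRPL36, which differed between the lines; MRPL20 and MRPS34, among the most abundant; and MRPS10 and MRPS18A, which carry both words at nearly the same distances from the start.
MRPS26: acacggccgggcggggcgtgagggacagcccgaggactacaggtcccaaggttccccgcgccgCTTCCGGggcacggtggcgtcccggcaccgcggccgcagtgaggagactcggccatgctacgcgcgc
MRPL36: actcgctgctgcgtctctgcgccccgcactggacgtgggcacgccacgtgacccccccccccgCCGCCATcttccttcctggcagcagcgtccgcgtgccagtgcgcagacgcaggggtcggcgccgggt
MRPL20: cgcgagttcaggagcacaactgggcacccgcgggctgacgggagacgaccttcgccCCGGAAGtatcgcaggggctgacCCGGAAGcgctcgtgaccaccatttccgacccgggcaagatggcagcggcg
MRPS34: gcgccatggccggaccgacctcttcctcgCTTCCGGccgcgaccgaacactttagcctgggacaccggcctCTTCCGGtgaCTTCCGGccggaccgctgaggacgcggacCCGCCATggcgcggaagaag
MRPS10: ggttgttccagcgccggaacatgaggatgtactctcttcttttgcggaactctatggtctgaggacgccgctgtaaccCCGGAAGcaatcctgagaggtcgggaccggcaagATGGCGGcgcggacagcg
MRPS18A: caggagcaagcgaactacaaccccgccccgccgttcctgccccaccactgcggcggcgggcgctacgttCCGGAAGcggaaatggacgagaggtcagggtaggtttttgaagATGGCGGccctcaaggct
In GRCh38.p14 the windows lie at chr20:3045952-3046081 (+ strand) for MRPS26, chr5:1799808-1799937 (- strand) for MRPL36, chr1:1407264-1407393 (- strand) for MRPL20, chr16:1773105-1773234 (- strand) for MRPS34, chr6:42217832-42217961 (- strand) for MRPS10 and chr6:43687762-43687891 (- strand) for MRPS18A. Counting the first base of a match from the start, MRPL20 held CCGGAAG at positions -44 and -21 and MRPS34 held its reverse complement at -71, -29 and -19. MRPS10 held CCGGAAG at -22 and MRPS18A at -31, and both held ATGGCGG at 13 after the start. The median level in total RNA was 22.5 TPM for the 26 members with CCGGAAG and 16.4 TPM for the 39 without. For ATGGCGG it was 15.5 TPM for the 23 members with the word and 18.5 TPM for the 42 without.

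The mRNAs were among the more abundant of the table, at much the same total level in the 3 lines. Levels are in TPM, a relative abundance that allows for transcript length and can be compared between genes, but in which a change in RNA per cell cannot be seen. The members summed to 1609 ± 209 TPM (SD, n = 3) in GFP total RNA, 1670 ± 199 in UPF1-1 and 1597 ± 383 in UPF1-2. This was 1.08% ± 0.0032, 1.06% ± 0.0076 and 1.10% ± 0.028 of the TPM of all listed genes, so the members' share was nearly constant while the sum followed the library. The median member stood at the 91st, 90.9th and 90.8th percentile of the listed genes.

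Levels differed widely between members. MRPL20, a large-subunit protein with a bacterial counterpart, was highest, with a mean of 81.6 TPM over the 9 total RNA libraries and values of 72.4, 81.4 and 90.5 TPM in GFP, 76.0, 77.8 and 92.4 in UPF1-1 and 71.8, 72.0 and 100.4 in UPF1-2. MRPL51, a large-subunit protein found only in mitochondria, followed at 78.0 TPM and MRPS34, a mitochondria-specific small-subunit protein, at 69.7 TPM. The values of MRPL20 and MRPL51 overlapped, and MRPS34 varied most of these genes, from 50.4 TPM in replicate 2 to 107 TPM in replicate 3 of UPF1-2. The lowest were MRPS25 at 3.37, MRPL30 at 3.31 and MRPL50 at 2.92 TPM, which overlapped one another. At least 20 TPM, as a group mean, was reached by 32 members in GFP, 33 in UPF1-1 and 31 in UPF1-2.

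**Figure D1:**
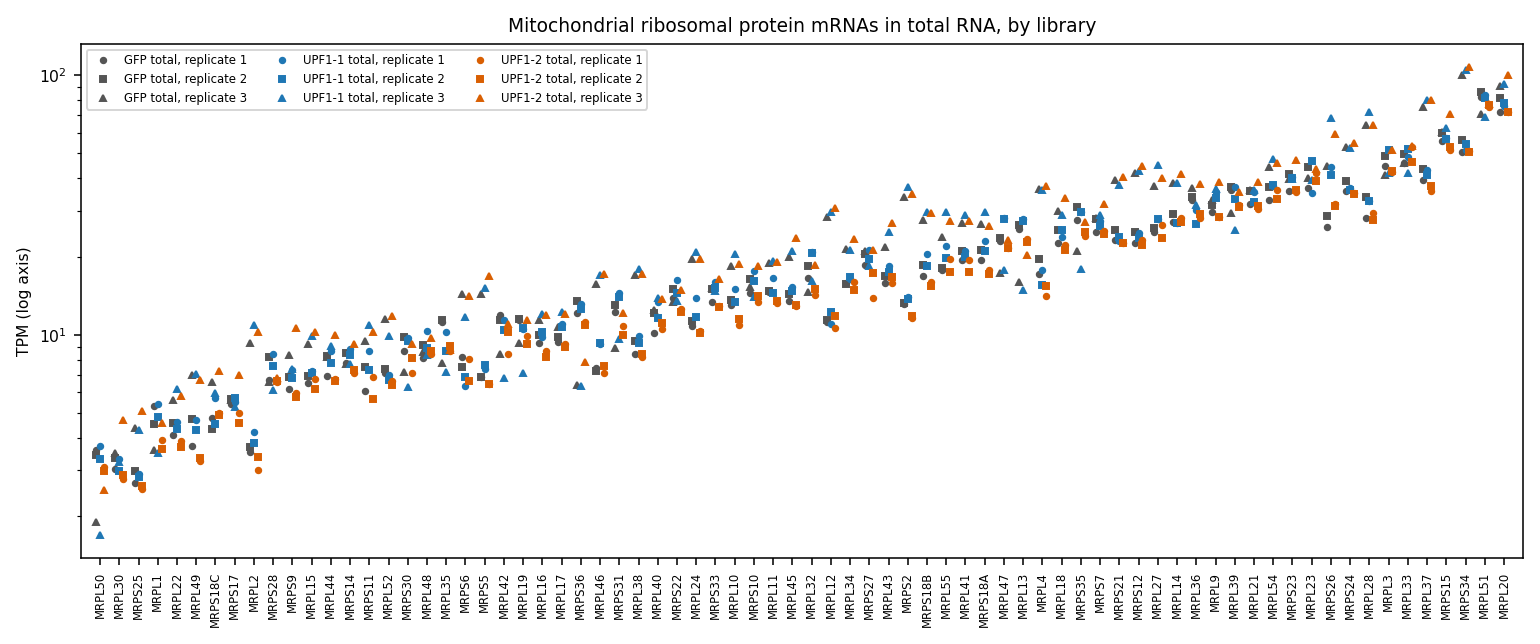
TPM of each member (x axis, ordered by mean over the 9 total RNA libraries) on a log axis, with 1 point per library, coloured by line and shaped by replicate. The range runs from MRPL50 at a mean of 2.92 TPM to MRPL20 at 81.6 TPM; the triangles of replicate 3 often stand off from the circles and squares of the same gene, in all 3 lines.

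Replicate 3 stood apart from replicates 1 and 2 in every group. With library medians set equal, its log2 value minus the mean of the other two had the same sign in all 5 groups for 52 of 74 members (70.3%, against 73.3% of all genes), 11 of them up and 41 down. MRPS2, of the small subunit, had on average the largest upward shift in total RNA, by 0.86, 0.98 and 0.69 log2 in GFP, UPF1-1 and UPF1-2, and MRPS36 had the largest downward shift, by -1.41, -1.36 and -1.32. In TPM, MRPS2 was 13.1 and 13.2 in replicates 1 and 2 but 33.8 in replicate 3 of GFP total RNA. The shifts of MRPS2 and MRPS36 are larger than any difference between lines described below for a member, and the lines were compared within replicate number. What made replicate 3 differ was not tested. UPF1, the induced gene, was at 3.24 to 8.57 TPM in GFP and 128.6 ± 49.8 TPM in UPF1-1 and 104.2 ± 57.9 TPM in UPF1-2 total RNA (SD, n = 3), as labelled. The line's markers VIM, KRT8 and KRT18 were present in all lines; of the markers of other cells HBA1 had 3.58 ± 2.07 TPM in GFP, 3.45 ± 1.74 in UPF1-1 and 4.05 ± 2.75 in UPF1-2, and PTPRC, CD3E, ALB and COL1A1 were not among the listed genes.

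The first comparison asked whether raised UPF1-1 altered these mRNAs in total RNA. Nearly all stayed close to their level in GFP cells: 1 rose, 3 fell and 70 did not pass the test. The fit was limma on log2(TPM + 0.5) with equal library medians and the replicate number as a block, across 9325 genes, with Benjamini-Hochberg adjusted p under 0.05. The 4 calls are 5.41% of the members, against 16.2% of all genes tested (8.38% higher, 7.79% lower). The members' median difference was -0.04 log2, against -0.01 for all genes. For 73 of 74 members the 95% interval of the difference lay within 1.5-fold in either direction, as it did for 91.7% of all genes.

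MRPS26 (ENSG00000125901), a small-subunit protein found only in mitochondria, was the one that rose. Its level was 26.0, 28.6 and 44.8 TPM in replicates 1, 2 and 3 of GFP, 44.1, 41.3 and 68.2 in UPF1-1 and 31.9, 31.4 and 59.1 in UPF1-2. Each UPF1-1 value was above the GFP and the UPF1-2 value of the same number, although the groups overlapped because replicate 3 was high in all 3 lines. The increase over GFP was 0.54 ± 0.065 log2 (SE; 95% interval 0.39 to 0.68), with an adjusted p of 0.0017 by limma, and was 0.57, 0.48 and 0.56 within the 3 numbers. UPF1-2 had a smaller difference from GFP, of 0.24 ± 0.065, which did not pass (adjusted p 0.20 by limma). The direct comparison of the UPF1 lines had MRPS26 higher with UPF1-1 by 0.29 ± 0.065 (adjusted p 0.030 by limma).

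The 3 members that fell encode large-subunit proteins with bacterial counterparts. MRPL36 (ENSG00000171421) had 32.99, 33.96 and 36.8 TPM in GFP and 30.3, 26.6 and 31.7 TPM in UPF1-1, and the groups did not overlap. It fell by 0.32 log2 with an SE of 0.057 and an adjusted p of 0.0089 by limma. UPF1-2, at 28.3, 29.2 and 38.1 TPM, spanned both groups, and its difference from GFP was -0.16 (adjusted p 0.32 by limma). MRPL35 (ENSG00000132313) had 11.2, 11.3 and 7.78 TPM in GFP, 10.2, 8.67 and 7.20 in UPF1-1 and 8.64, 9.08 and 8.73 in UPF1-2, with overlap. It fell by 0.29 with an SE of 0.063 and an adjusted p of 0.018 by limma. MRPL19 (ENSG00000115364) had 11.4, 11.5 and 9.30 TPM in GFP, 10.5, 10.6 and 7.14 in UPF1-1 and 9.93, 9.23 and 11.4 in UPF1-2. Its fall of 0.28 with an SE of 0.082 had an adjusted p of 0.049 by limma and sat at the threshold. MRPS6, a small-subunit protein with a bacterial counterpart, had the lowest estimate, -0.34 ± 0.11, and did not pass (adjusted p 0.064 by limma).

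Without the block none of the 74 passed in this comparison (background 0.172%; MRPS26: adjusted p 0.19 by limma). Without equal medians only MRPS26 did (background 3.23%), and with upper quartiles equal 1 rose and 6 fell (background 6.84% and 10.5%). Without replicate 1 the count was 2 (background 6.4%), without replicate 2 it was 1 (2.24%) and without replicate 3 it was 3 (14.5%); MRPS26 passed each time. In the authors' deposited table no member had a sleuth q-value under 0.05 for UPF1-1 against GFP, and 0.368% of all genes had one. The lowest p-value among members there was that of MRPS26, 0.00331, with a q-value of 0.416.

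**Figure D2:**
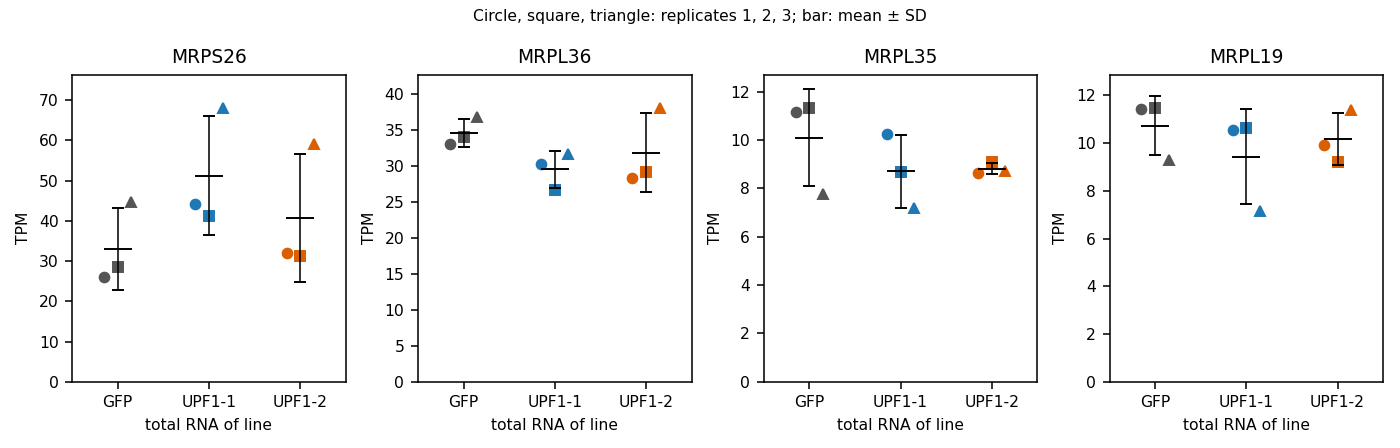
TPM (y axis, from 0) of the 4 members that passed in UPF1-1 against GFP, in total RNA of the 3 lines (x axis), with 1 symbol per replicate and the mean ± SD of 3. MRPS26 is higher in UPF1-1 than in GFP at every replicate number, and MRPL36 is the one of the 4 whose GFP and UPF1-1 values do not overlap.

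With UPF1-2 no member passed against GFP (0 of 74; background 0.375%). The median was -0.06 log2, against -0.02 for all genes, and the range -0.25 (MRPL49) to 0.24 (MRPS26). Below 0 were 64 members and above it 10 (5231 and 4094 of all 9325 genes). The split depended on the scaling: 24 members were above 0 without equal medians and 18 with upper quartiles equal (5148 and 4537 of all genes). For all 74 members the 95% interval lay within 1.5-fold, and for 97.4% of all genes. The unadjusted p was under 0.05 for 8 members (10.8%; 12.1% of all genes), and no member passed without the block (background 0.0322%), without equal medians (0.0643%) or in the authors' deposited table (0.0327%). The comparisons of UPF1-1 and UPF1-2 with GFP share the GFP libraries, so they are set side by side only. Between the UPF1 lines 1 of 74 passed (1.35%, background 9.51%, of which 5.49% higher), MRPS26. It did not pass without replicate 2 or 3 (adjusted p 0.20 and 0.11 by limma), without the block (0.92; background 0%) or without equal medians (0.16; background 0.954%). In the authors' deposited table its p-value for this comparison was 0.0891 and its q-value 1, and no member had a q-value under 0.05 (0.139% of all genes).

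**Figure D3:**
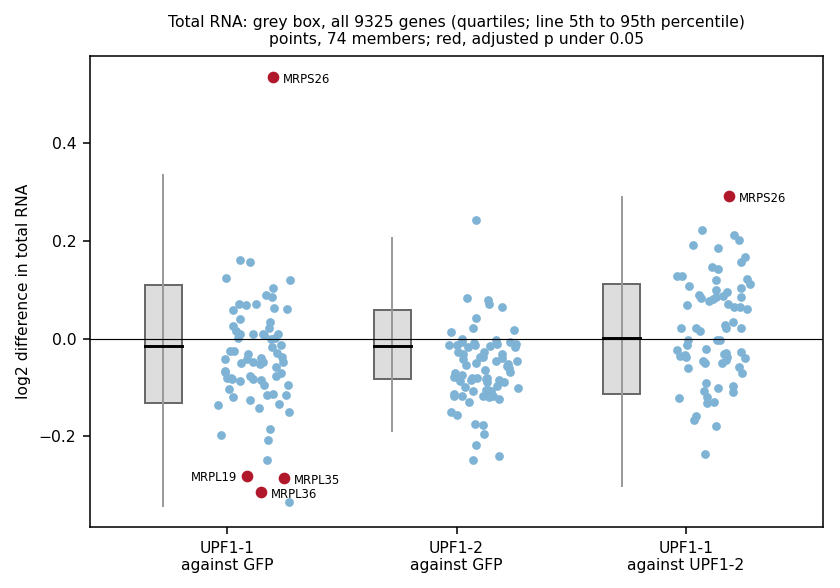
log2 difference in total RNA (y axis) for the 3 comparisons, with all genes tested as a grey box and each of the 74 members as a point, red where the adjusted p was under 0.05. Members lie on both sides of 0, but 64 of 74 are below it for UPF1-2 against GFP, as are 5231 of all 9325 genes. That split depended on the scaling. MRPS26, at 0.54 for UPF1-1 against GFP and 0.29 against UPF1-2, is the point set off from the other members.

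Among genes that build and serve the mitochondrial ribosome, some assembly factors rose and some translation factors fell with UPF1-1 in the blocked fit with equal medians. Without the block no gene of any list passed (background 0.172%), and without equal medians 1 assembly factor and 2 cytosolic ribosomal protein genes did, all higher (background 3.23%). The 7 subunits that carry other symbols, among them DAP3 and AURKAIP1, had no call in UPF1-1 against GFP and ranged from -0.14 to 0.06 log2. Of 23 assembly factors 5 rose, the GTPases MTG2 (0.52 ± 0.083, adjusted p 0.0050 by limma) and MTG1 (0.32), the RNA helicases DDX28 (0.32) and DHX30 (0.19) and the ribosome-binding factor RBFA (0.31), and 1 fell, MALSU1 (-0.26), which acts on the large subunit. Of 14 tested factors of mitochondrial translation and mRNA binding, 3 fell: the elongation factor GUF1 by 0.39, and LRPPRC and SLIRP, partners that bind mitochondrial mRNAs, by 0.35 and 0.25. Of 11 genes of mitochondrial transcription and RNA processing none passed, with 1 at an unadjusted p under 0.05. The shares that passed in either direction, 26.1%, 21.4% and 0%, stand beside a background of 16.2%. By direction, 21.7% of the assembly factors were higher (background 8.38%) and 4.35% lower (background 7.79%). The translation factors that passed, 21.4%, were all lower (background 7.79%). No list was tested as a set. For scale, 8 of 77 cytosolic ribosomal protein genes (10.4%) and 10 of 76 oxidative phosphorylation subunits (13.2%) passed, and none of any of these lists passed with UPF1-2.

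In the IPs most mitochondrial ribosomal protein mRNAs were recovered below the median gene, with both isoforms. All listed genes together took a larger part of the TPM scale in the IPs, 54.2% ± 13.7 with UPF1-1 and 54.6% ± 13.2 with UPF1-2 (SD, n = 3). In total RNA they took 12.2% to 19.0% per library. The median gene was higher in the IPs by 2.40 and 2.38 log2 as deposited. Recovery is therefore given as log2 IP over total RNA with equal library medians, from a fit over 11969 genes that pairs each IP with the total RNA of the same line and number (the block). For UPF1-1, 10 of 74 members rose relative to the library medians and 53 fell (13.5% and 71.6%, background 30.8% and 43.9%). The members' median was -0.91, against -0.16 for all genes. For UPF1-2, 15 rose and 51 fell (20.3% and 68.9%; background 31.5% and 44.2%), with a median of -0.76 against -0.15. As deposited, without equal medians, 71 were higher and 0 lower for UPF1-1 (background 95.8% and 1.25%), and 70 and 0 for UPF1-2 (96% and 1.07%), at medians of 1.65 and 1.77. The mRNAs gained in the IPs, but less than the median gene gained. Without the block and with equal medians, 5 rose and 43 fell for UPF1-1 (background 19.8% and 32%) and 7 and 41 for UPF1-2 (21.1% and 33.1%). In place among all listed genes, the median member went from the 90.9th to the 83.8th percentile with UPF1-1 and from the 90.8th to the 84.8th with UPF1-2. The summed share of listed TPM was nevertheless 1.11% ± 0.049 and 1.07% ± 0.079 in the IPs (SD, n = 3), close to that in total RNA.

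The spread within the family was wide, from -2.83 to 1.51 with UPF1-1 and from -2.58 to 1.61 with UPF1-2. It was much the same with both isoforms: 50 members were lower and 9 higher with each, and 1, MRPL50, was higher with UPF1-1 and lower with UPF1-2. A further 3 passed with UPF1-1 alone (MRPL2, MRPL39 and MRPS11), 6 with UPF1-2 alone (MRPL28, MRPL44, MRPS17, MRPS2, MRPS22 and MRPS9) and 5 with neither (MRPL1, MRPL45, MRPS18A, MRPS18B and MRPS26); passing with 1 isoform alone is no test of a difference. Across the 74 members the recoveries with the isoforms correlated at r = 0.96, and across 11969 genes at 0.94, so the agreement was not particular to the members. Both values are descriptions over genes that share the libraries of each fit. The share of all genes that passed with both isoforms was not counted. With UPF1-1 74.7% of all genes passed and with UPF1-2 75.7%, against 85.1% and 89.2% of the members.

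**Figure D4:**
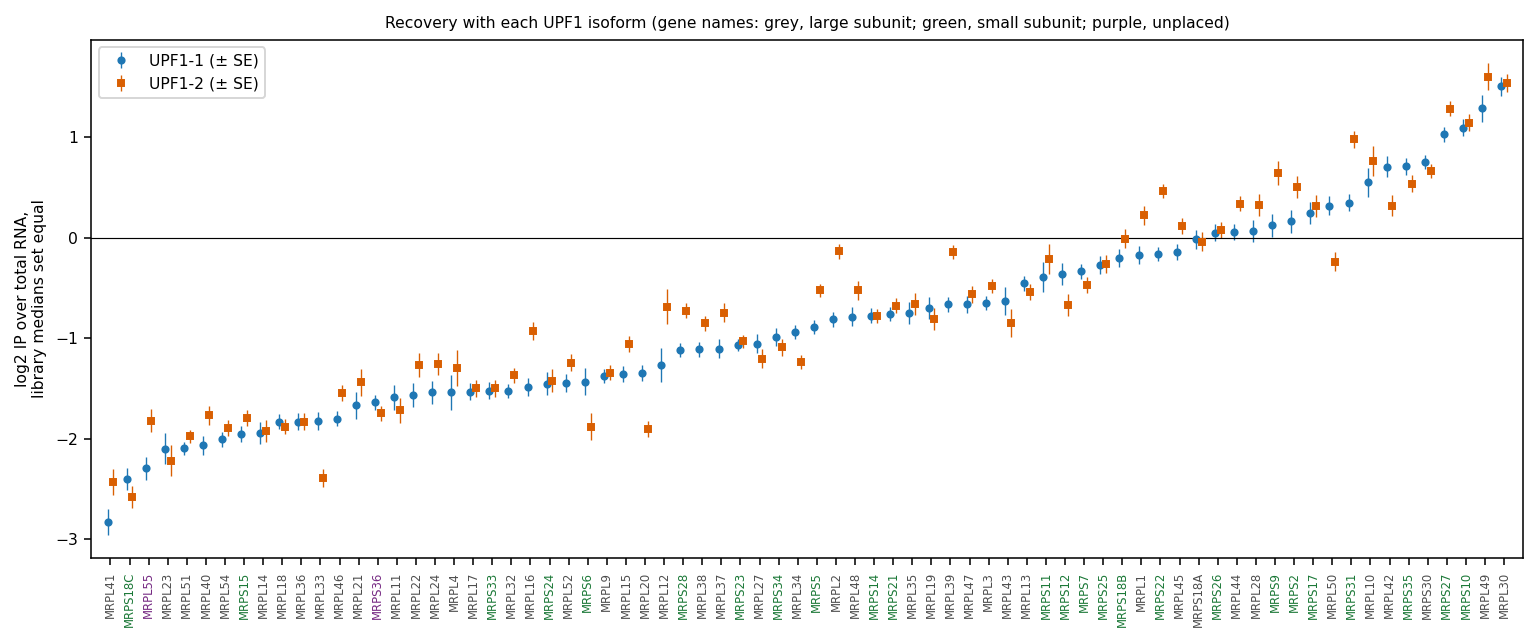
Recovery of each member (x axis, ordered by UPF1-1) as log2 IP over total RNA with library medians equal (y axis), for UPF1-1 (blue) and UPF1-2 (orange), with SE. Values run from -2.83 for MRPL41 to 1.51 for MRPL30 with UPF1-1; names of large-subunit genes are grey, of small-subunit genes green.

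MRPL30 (ENSG00000185414), a large-subunit protein with a bacterial counterpart, was recovered most with UPF1-1. It was one of the scarcest members in total RNA, at 3.32, 2.97 and 3.23 TPM in UPF1-1 and 2.78, 2.87 and 4.71 in UPF1-2, and reached 57.4, 56.7 and 70.2 TPM and 59.4, 62.9 and 71.4 TPM in the IPs. The IP and total RNA values lay far apart. Its recovery was 1.51 ± 0.094 (SE) with UPF1-1 and 1.54 ± 0.094 with UPF1-2, with adjusted p of 2.1e-06 and 1.8e-06 by limma. MRPL49, a mitochondria-specific large-subunit protein that was also scarce (3.26 to 7.04 TPM in the UPF1 lines), had 1.29 ± 0.13 and 1.61 ± 0.13. MRPS10, a small-subunit protein with a bacterial counterpart, went from 13.3 to 18.5 TPM in total RNA to 194 to 210 TPM in the IPs, and its 6 IP values were close to each other. Its recovery was 1.10 ± 0.086 and 1.15 ± 0.086. MRPS27, a mitochondria-specific small-subunit protein, had 1.03 ± 0.076 and 1.29 ± 0.076. MRPS30, of the large subunit, had 0.75 and 0.66, and MRPS35, of the small subunit, 0.71 and 0.54. MRPS31, a mitochondria-specific small-subunit protein, had 0.35 and 0.98. MRPL10, which anchors the stalk of the large subunit, had 0.55 and 0.77 and passed with both.

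At the other end, MRPL41 (ENSG00000182154), a large-subunit protein found only in mitochondria, had the lowest recovery with UPF1-1. It had 21.1, 19.9 and 28.8 TPM in total RNA and 17.2, 17.6 and 22.7 TPM in the IP of UPF1-1, and 19.4, 17.4 and 27.4 against 21.4, 21.7 and 24.4 TPM for UPF1-2. With UPF1-1 the IP value was below that of total RNA at every number, and with UPF1-2 it was above it at numbers 1 and 2 and below it at 3, while the median gene rose. The ranges of IP and total RNA overlapped for each isoform. Its recovery was -2.83 ± 0.13 and -2.43 ± 0.13 (SE), with adjusted p of 3.9e-07 and 9.1e-07 by limma. MRPL55 had -2.30 and -1.82, MRPL23, a large-subunit protein at the exit of the nascent chain, -2.10 and -2.22, MRPL51 -2.10 and -1.98 and MRPL40 -2.07 and -1.77. MRPL33 had -1.82 and -2.39 and MRPL14 -1.94 and -1.92, both of the large subunit with bacterial counterparts. For MRPL51 a high level came with a low recovery: at 68.9 to 83.6 TPM in total RNA of the UPF1 lines it had 103 to 117 TPM in the IPs. Those IP levels were below those of MRPS10. Whether level and recovery were related over all members was not tested.

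The small subunit lay higher than the large, and mitochondria-specific proteins higher than those with bacterial counterparts, by medians and without a test. The 47 large-subunit members had medians of -1.11 with UPF1-1 and -0.93 with UPF1-2, and the 25 small-subunit members -0.36 and -0.47. MRPL55, at -2.30 and -1.82, was left unplaced and is in none of the medians compared here, although its symbol is that of a large-subunit gene. The 29 large-subunit members with bacterial counterparts had -1.36 and -1.24, of which 25 and 24 were lower (86.2% and 82.8%) and 2 and 3 higher (6.9% and 10.3%). The background was 43.9% and 44.2% lower and 30.8% and 31.5% higher. The 18 mitochondria-specific large-subunit members had -0.72 and -0.63, the 15 small-subunit members with counterparts -0.76 and -0.67, and the 10 without -0.18 and 0.03. In that order 61.1% and 61.1%, 73.3% and 66.7%, and 40% and 40% were lower. Higher were 22.2% and 22.2%, 6.67% and 26.7%, and 30% and 40%. Each of these classes held members above and below 0, such as MRPL30 and MRPL23 among the large-subunit members with counterparts. The low end of the family was not reached by the small-subunit members without counterparts. Their lowest recoveries were -1.52 with UPF1-1 and -1.50 with UPF1-2. In total RNA of UPF1-1 against GFP the class medians all lay between -0.06 and 0.03 log2.

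The MRPS18 paralogs show how far related genes parted. MRPS18C, the one that takes the place of the bacterial protein in the small subunit, had 5.69, 4.54 and 5.94 TPM in total RNA and 4.76, 5.30 and 8.65 TPM in the IP of UPF1-1. MRPS18A, of the large subunit, had 22.98, 20.94 and 29.6 TPM and 122.9, 132.7 and 184 TPM, and MRPS18B, elsewhere in the small subunit, 20.5, 18.4 and 29.8 TPM and 96.9, 100.5 and 164 TPM. MRPS18C thus did not separate between IP and total RNA in TPM, whereas the IP values of the other paralogs were all far above their total RNA values. Recoveries were -2.40 ± 0.11 and -2.58 ± 0.11 (SE) for MRPS18C with UPF1-1 and UPF1-2, -0.01 ± 0.095 and -0.04 ± 0.095 for MRPS18A and -0.20 ± 0.092 and -0.01 ± 0.092 for MRPS18B. The sign of MRPS18A, with either isoform, and of MRPS18B with UPF1-2 turned with the pseudocount. The adjusted p of MRPS18C was 3.9e-07 and 3.5e-07 by limma, and those of the others were 0.077 or above.

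Other components of the same pathway were recovered unevenly as well. The background was 30.8% higher and 43.9% lower for UPF1-1, and 31.5% and 44.2% for UPF1-2. Of the 7 subunits under other symbols 6 were lower and 1 higher with each isoform: GADD45GIP1 had -2.49 and -2.21 and AURKAIP1 -2.32 and -2.04, while PTCD3, an RNA-binding protein of the small subunit, had 0.45 and 0.73. Of 23 assembly factors 9 rose and 6 fell for UPF1-1 (39.1% and 26.1%), and 16 and 5 for UPF1-2 (69.6% and 21.7%). Their medians were 0.08 and 0.44. MTG2 had 0.93 and 1.16 and MALSU1 -2.17 and -2.26. Of 15 translation factors 6 rose and 6 fell for UPF1-1 (40% each), and 5 and 5 for UPF1-2 (33.3% each). LRPPRC, at 0.99 and 1.41, and SLIRP, at -2.74 and -2.59, were at opposite ends although their proteins form 1 complex. Of 12 genes of mitochondrial transcription and RNA processing 6 rose and 3 fell for UPF1-1 (50% and 25%). For UPF1-2 it was 9 and 1 (75% and 8.33%), and the medians were 0.35 and 0.50. TRMT10C, a subunit of the mitochondrial RNase P, had 1.23 and 1.67, and HSD17B10, of the same enzyme, -1.99 and -1.54. Cytosolic ribosomal protein mRNAs fell in 78 of 78 cases with each isoform (medians -2.46 and -2.27), and oxidative phosphorylation subunits in 65 and 64 of 76 (-2.02 and -1.79). Both lists had lower medians than the mitochondrial ribosomal proteins.

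The last comparison asked whether the isoforms recovered these mRNAs differently. Of 74 members 10 passed (13.5%, background 10.7%), a share near that of all genes. Of these 3 were recovered more and 7 less with UPF1-1 than with UPF1-2 (background 4.43% and 6.27%). With upper quartiles equal the split was 4 and 5, and that of all genes turned round, to 7.07% higher and 3.83% lower. The median difference was -0.11 log2, against -0.04 for all genes, and became -0.03 and 0.04 under that scaling, so the balance of directions depended on the scaling. MRPL20, the most abundant member, had 171.5, 174.6 and 231 TPM in the IP of UPF1-1 and 119.8, 113.8 and 140.9 TPM in that of UPF1-2, with no overlap and with alike total RNA. Its recovery was higher with UPF1-1 by 0.56 ± 0.11 (SE; adjusted p 0.024 by limma). MRPL33 was higher by 0.57 ± 0.13 and MRPL50 by 0.56 ± 0.13. MRPL50, a mitochondria-specific large-subunit protein and the scarcest member, had 23.98, 25.78 and 21.37 TPM in the IP of UPF1-1 and 16.78, 16.99 and 14.23 TPM in that of UPF1-2, without overlap. Its recovery was 0.32 ± 0.094 (adjusted p 0.013 by limma) with UPF1-1 and -0.24 ± 0.094 (adjusted p 0.046) with UPF1-2, the one case of calls in opposite directions. MRPL2, a large-subunit protein next to the site of peptide bond formation, had 14.2, 13.6 and 41.9 TPM in the IP of UPF1-1 and 20.2, 19.4 and 51.4 TPM in that of UPF1-2. The UPF1-2 value was the higher at each number, while replicate 3 was far above the others in both. Its recovery with UPF1-1 was lower, at -0.68 ± 0.11 (adjusted p 0.016 by limma). The other members recovered less with UPF1-1 were MRPS31 (-0.63), MRPS22 (-0.63), MRPL16 (-0.55), MRPL39 (-0.52), MRPS28 (-0.40) and MRPS5 (-0.37). MRPS22, a mitochondria-specific small-subunit protein, had recoveries of -0.24, -0.07 and -0.16 with UPF1-1 and 0.55, 0.40 and 0.46 with UPF1-2.

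With all 4 libraries of replicate 1 or of replicate 2 left out no member passed, and 0% of all genes did, while 8 members passed without replicate 3 (background 9.4%). The differences themselves kept their direction for MRPL33, MRPL20, MRPL50, MRPL2, MRPS31, MRPS22 and MRPL16 whichever number was left out: MRPL33 ranged from 0.414 to 0.702 and MRPL2 from -0.73 to -0.626. None passed without the block or without equal medians, where 0% of all genes passed. For the remaining 64 members no difference was shown; the 95% interval of the difference lay within 1.5-fold for 44 of all 74 members (59.5%; 47.6% of all genes), so for many a moderate difference cannot be told from none.

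**Figure D5:**
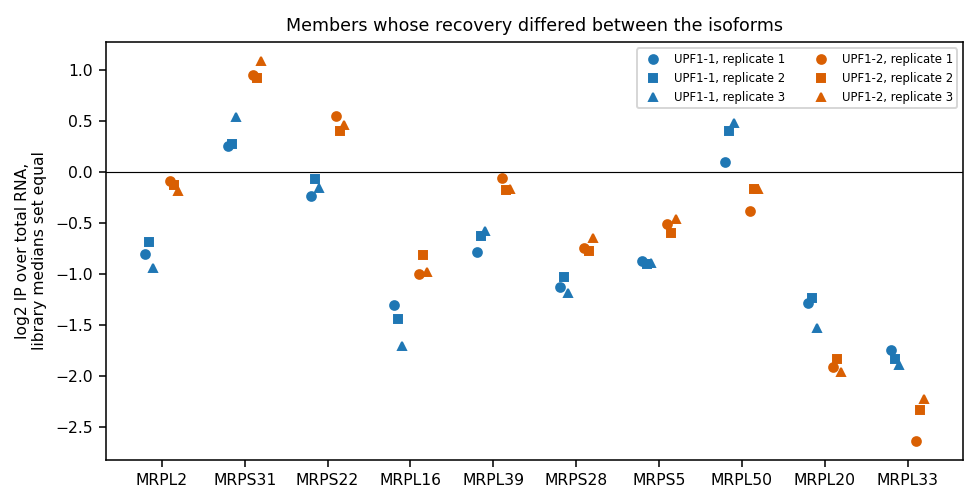
Recovery (y axis, log2 IP over total RNA with library medians equal) at each replicate number of the 10 members that differed between the isoforms, UPF1-1 in blue and UPF1-2 in orange. The 3 blue and 3 orange values of each gene do not overlap, but the genes were chosen by a test of these same values, so this adds no support. MRPL20, MRPL33 and MRPL50 have the blue values on top, the others the orange.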

How the data were processed

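The deposited table lists 12261 genes with TPM in 15 libraries; per the file headers these are TPM values per library, made by the authors. The submitters' processing notes name hg19, kallisto, cutadapt and sleuth but no version. The authors deposited with them the ratio of IP to total RNA TPM per replicate number, log2 fold changes, and sleuth p-values and q-values. The deposited ratios equalled those recomputed from TPM in 100% of entries (tolerance 1e-06). The table starts at a group mean of 0.25 TPM in total RNA. Read depth is unknown, since TPM keeps none.

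Groups and replicate numbers came from the sample titles. Values were log2(TPM + 0.5) with library medians made equal, for genes reaching 1 TPM in 3 or more of the libraries fitted. The test was limma-trend (limma 3.58.1, R 4.3.3) over 9 total RNA libraries (9325 genes; block: replicate number) or 12 IP and total RNA libraries of the UPF1 lines (11969 genes; block: line and replicate number). Tests were 2-sided, with Benjamini-Hochberg adjustment over all genes. The IP and total RNA of a line share a numbered sample code in the labels. With group means removed, same-numbered total RNA libraries correlated at 0.70 to 0.95 (9 pairs) and numbers 1 and 2 at 0.64 to 0.80, so the data set number 3 apart. The labels do not say that replicates were separate cultures, so p-values measure only the spread among these libraries, which may be technical.

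Members, lists, classes, tests and the rule for named genes were chosen with earlier results of these data known. The rule named up to 6 members each way past the threshold per total RNA comparison, the 6 highest and 6 lowest recoveries per isoform, up to 4 each way for the isoform difference, the 3 highest and 3 lowest levels and the MRPS18 paralogs. The fits were run on data simulated from the blocked fits with independent noise. Such data take the block and the independence of libraries as given, so they cannot show whether either holds here. Alternatives were the fit without the block, without equal medians or with equal upper quartiles, pseudocounts of 0.1 and 1 TPM, no filter, and each replicate left out.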

Additional observations from a re-analysis of the deposited data

Results flagged for a closer look

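The isoform lines differed in 11 results when the difference itself was tested with limma, with the block and equal library medians. In total RNA, MRPS26 was higher in UPF1-1 than in UPF1-2 by 0.292 log2 (95% interval 0.144 to 0.44, adjusted p 0.030), higher in 3 of 3 replicate numbers. In recovery, MRPL33 (0.57, interval 0.281 to 0.859), MRPL20 (0.558, 0.302 to 0.814) and MRPL50 (0.558, 0.253 to 0.862) were higher with UPF1-1. Lower with UPF1-1 were MRPL2 (-0.676, -0.922 to -0.431), MRPS31 (-0.628, -0.89 to -0.366), MRPS22 (-0.626, -0.852 to -0.4), MRPL16 (-0.553, -0.847 to -0.26), MRPL39 (-0.522, -0.754 to -0.289), MRPS28 (-0.395, -0.625 to -0.165) and MRPS5 (-0.366, -0.583 to -0.149). The adjusted p of these 10 lay between 0.016 (MRPL2) and 0.047 (MRPS5). Of all genes 10.7% differed in recovery by the same test. No member's difference in recovery passed without the block.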

How the results depend on the processing

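In UPF1-1 against GFP 4 members passed (5.41%, background 16.2%). The count was 0 without the replicate block (background 0.172%), 1 without equal medians (3.23%) and 7 with upper quartiles equal (6.84% higher and 10.5% lower). It was 0 with neither block nor equal medians, a setting for which no background is given here. With 1 replicate left out it was 1 to 3 (background 2.24% to 14.5%). In UPF1-1 against UPF1-2 the count of 1 (background 9.51%) became 0 without the replicate block (background 0%) or without equal medians (0.954%). It was also 0 with neither or at a pseudocount of 0.1, and 0 to 1 with 1 replicate left out. No background is given here for those further settings. In the isoform difference in recovery the count of 10 (background 10.7%) became 0 without the replicate block or without equal medians (background 0% each). It was also 0 with neither, and 0 to 8 with 1 replicate left out (background 0% to 9.4%). For UPF1-2 against GFP no setting gave a call. In the IPs, without the replicate block and with equal medians, 5 members were higher and 43 lower with UPF1-1 (10 and 53 as reported) and 7 and 41 with UPF1-2 (15 and 51).

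Without equal medians, with or without the block, most of the low recoveries changed sign, and 73 of 74 members were above 0 with each isoform. So were 11677 of all 11969 genes with UPF1-1 and 11720 with UPF1-2, so this was not particular to the members. The median over all genes went from -0.16 to 2.40 with UPF1-1 and from -0.15 to 2.38 with UPF1-2. The exceptions among the members were MRPL41 with UPF1-1 (-0.266) and MRPS18C with UPF1-2 (-0.05). With UPF1-1 MRPL40 had 0.494, MRPL51 0.464, MRPL23 0.462, MRPL55 0.265 and MRPS18C 0.158. With UPF1-2 MRPL14 had 0.607, MRPL51 0.552, MRPL23 0.311, MRPL33 0.135 and MRPL41 0.0953. MRPS18A had 2.55 and 2.49 and MRPS18B 2.36 and 2.52. Near 0 in the reported fit, MRPS18A became 0.178 and 0.157 at a pseudocount of 1, and with UPF1-1 ran from -0.14 to 0.0919 with 1 replicate left out (0.00651 without replicate 1). MRPS18B with UPF1-2 became 0.184 at a pseudocount of 1, 0.00317 without the filter, and ran from -0.0682 to 0.036 with 1 replicate left out.

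The member median of recovery with UPF1-1 was -1.09 and -0.737 at pseudocounts of 0.1 and 1. TPM carries no read depth, so no counting error could be given for low members such as MRPL50.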
